A study of Mus musculus with 12 samples.

Results

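Transcripts of 8 mast cell genes, out of 31099 genes in the count table, were followed through 4 cell populations sorted from the fat of newborn mice. Tpsb2, Cma1, Mcpt4 and Cpa3 encode proteases of the mast cell granule. Fcer1a and Ms4a2 encode chains of the high-affinity IgE receptor, Kit encodes the receptor for stem cell factor, and Hdc encodes the enzyme that makes histamine. The genes were taken by symbol as textbook mast cell genes, and were chosen by their values in 1 contrast: protease genes of this kind had come out among those lowest in perivascular progenitors relative to inguinal DPP4+ progenitors, and 1 inguinal library had stood out for them. Values of that contrast are therefore given as a description, with no test.

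The cells came from wild-type CD-1 pups of both sexes at 3 days of age, and each population was sequenced as 3 libraries. Fat was digested from 2 depots, inguinal white fat, sorted into DPP4+ progenitors and ICAM1+ preadipocytes, and the fat around the thoracic aorta, taken with the aorta and sorted into perivascular progenitors and perivascular preadipocytes. For the perivascular sort the labels name no antibodies, so a difference between depots and a difference between sort gates cannot be told apart. Same-numbered libraries share a pool of pups, so a library stands for a pool and not for an animal. Whole sorted fractions were measured, and fewer mast cells and less RNA per mast cell cannot be told apart in such bulk samples.

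Mast cells are tissue-resident immune cells that mature from blood-borne progenitors under the control of KIT and its ligand, stem cell factor. Their granules store tryptases, chymases and carboxypeptidase A3 bound to heparin, together with histamine, and crosslinking of IgE on the FcεRI receptor releases them. Connective tissue mast cells lie along blood vessels and nerves, in skin and in fat. None of the sorted populations was labelled as mast cells.

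The library totals ran from 15614628 to 25674461 counts. Levels are CPM (counts scaled to a library of fixed size) after TMM scaling, a correction for differences in RNA composition, and log2 differences come from 1 edgeR fit of the 12 libraries over 18855 genes that passed a filter on low counts. The labelled cell type was checked with 8 stromal markers (Pdgfra, Pdgfrb, Col1a1, Col3a1, Dcn, Lum, Cd34 and Ly6a), all detected in every library. Their summed level was 269000 to 319000 CPM in DPP4+ progenitors, 140000 to 167000 CPM in ICAM1+ preadipocytes, 103000 to 166000 CPM in perivascular progenitors and 26800 to 72100 in perivascular preadipocytes. In 3 libraries values stood apart from their groups: DPP4+ library 2 held more leukocyte RNA, perivascular progenitor library 1 was at the low end of the stromal sums (103000 against 159000 and 166000 CPM), and perivascular preadipocyte library 1 at the high end (72100 against 35500 and 26800 CPM). Calls and log2 differences of the 8 genes that rest on them are given with and without them. Ligand levels and summed shares are given with all libraries only.

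The 8 genes lie on 7 mouse chromosomes, all are protein coding, and no exon of theirs overlaps an exon of another gene. In mm10 with GENCODE vM21, Tpsb2 lies at chr17:25366305-25369098 on the plus strand. Cma1 (chr14:55941451-55944675) and Mcpt4 (chr14:56059629-56062313) lie in the same chymase locus on the minus strand. Cpa3 lies at chr3:20215620-20242181, Fcer1a at chr1:173221284-173227214, Ms4a2 at chr19:11615523-11623719 and Hdc at chr2:126593667-126619299, all on the minus strand, and Kit at chr5:75574916-75656722 on the plus strand. Of the 50-base words in the exons, the share also found in exons of other genes was 0% for Tpsb2, Cpa3, Kit and Fcer1a, 0.141% for Hdc, 2.1% for Ms4a2, 5.38% for Cma1 and 5.48% for Mcpt4, so reads of the last 2 genes are uncertain over a small part of their length.

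The sequences upstream of 5 of these genes are shown because 3 of the genes (Cma1, Mcpt4 and Cpa3) rose and fell together across the libraries while the other 2 (Fcer1a and Ms4a2) had few counts. Each is the 250 bases before the RefSeq transcription start in build GRCm38.p6, 5′ to 3′ on the strand of the gene, all minus: chr14:55944676-55944925 for Cma1, chr14:56062311-56062560 for Mcpt4, chr3:20242182-20242431 for Cpa3, chr1:173227230-173227479 for Fcer1a and chr19:11623720-11623969 for Ms4a2. Capitals mark AGATAA or TGATAA on either strand (the GATA word), CATGTG or CACGTG on either strand (the E-box word that MITF can bind) and TATAAA on the sense strand.
Cma1: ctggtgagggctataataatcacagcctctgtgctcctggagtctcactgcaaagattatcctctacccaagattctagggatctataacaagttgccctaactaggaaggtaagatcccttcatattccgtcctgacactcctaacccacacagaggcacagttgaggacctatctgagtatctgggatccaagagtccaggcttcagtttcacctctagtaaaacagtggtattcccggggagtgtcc
Mcpt4: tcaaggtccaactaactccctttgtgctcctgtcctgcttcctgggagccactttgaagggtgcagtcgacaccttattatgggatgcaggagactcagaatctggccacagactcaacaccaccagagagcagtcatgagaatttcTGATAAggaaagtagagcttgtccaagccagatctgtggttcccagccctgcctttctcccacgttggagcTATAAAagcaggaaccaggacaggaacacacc
Cpa3: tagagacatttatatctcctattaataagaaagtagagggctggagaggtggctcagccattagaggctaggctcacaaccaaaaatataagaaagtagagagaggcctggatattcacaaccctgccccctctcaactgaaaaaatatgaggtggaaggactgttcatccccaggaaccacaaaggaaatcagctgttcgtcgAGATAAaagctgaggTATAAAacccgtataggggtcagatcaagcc
Fcer1a: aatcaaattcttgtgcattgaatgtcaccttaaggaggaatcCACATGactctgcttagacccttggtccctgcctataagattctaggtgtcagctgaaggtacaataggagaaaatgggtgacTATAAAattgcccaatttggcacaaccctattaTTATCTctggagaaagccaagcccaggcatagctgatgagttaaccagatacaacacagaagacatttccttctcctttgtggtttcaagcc
Ms4a2: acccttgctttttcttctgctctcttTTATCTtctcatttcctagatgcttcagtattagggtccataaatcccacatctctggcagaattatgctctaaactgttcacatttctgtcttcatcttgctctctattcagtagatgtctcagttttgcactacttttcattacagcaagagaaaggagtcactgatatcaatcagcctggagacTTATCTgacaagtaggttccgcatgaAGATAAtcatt
The Cpa3 sequence holds AGATAA at -46 and TATAAA at -31, counted from the start site, and the Mcpt4 sequence holds TGATAA at -103 and TATAAA at -32. Ms4a2 holds AGATAA at -11 on the sense strand and at -37 and -224 on the other strand. Fcer1a holds TATAAA at -125, the GATA word at -92 on the other strand and CATGTG at -208 on the other strand. None of these words is in the Cma1 window. Among 32851 mouse promoter windows of the same length, 16.6% held a GATA word, 17.6% an E-box word and 7.59% TATAAA. RefSeq entries matched 7 of the 8 genes, without Tpsb2. The windows held 0 to 3 CpG dinucleotides except that of Kit, with 17, against a median of 6 over all windows. These matches describe letters and no binding was measured.

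The granule proteases were abundant in both inguinal populations and low in both perivascular ones. Tpsb2, a tryptase that is active as a tetramer on heparin, was at 20.7, 93.3 and 19.0 CPM in the 3 DPP4+ libraries, at 30.5, 32.9 and 16.4 CPM in ICAM1+ preadipocytes, at 2.26, 1.91 and 2.09 CPM in perivascular preadipocytes and at 0.155, 0 and 0.108 CPM in perivascular progenitors. The inguinal groups overlapped each other, and each perivascular group lay apart from the other and below every inguinal library. The 5 counts of Tpsb2 in all perivascular progenitor libraries together set the precision there, and the 0 in library 2 allows up to 0.173 CPM (3 counts).

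Cma1, a chymase, had the same order of groups, with 16.1, 73.9 and 14.4 CPM in DPP4+ progenitors, 26.5, 26.7 and 12.7 CPM in ICAM1+ preadipocytes, 5.55, 2.25 and 2.63 CPM in perivascular preadipocytes and 0.0516, 0.0576 and 0.433 CPM in perivascular progenitors. Cpa3, the carboxypeptidase that trims peptides cut by the chymases, was at 13.7, 60.8 and 8.69 CPM, then 17.8, 22.0 and 13.1 CPM, 2.85, 0.978 and 1.66 CPM, and 0.258, 0 and 0.271 CPM in the same populations. For both genes the 2 inguinal groups overlapped, perivascular preadipocytes lay below them, and perivascular progenitors, with 10 counts of each gene in all, lay lowest without overlap.

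Mcpt4, the chymase of connective tissue mast cells, was the scarcest of the 4. It was at 1.79, 11.1 and 1.97 CPM in DPP4+ progenitors and at 2.63, 4.34 and 2.72 CPM in ICAM1+ preadipocytes. In perivascular preadipocytes it was at 0.0983, 0.0489 and 0.268 CPM (8 counts in all) and in perivascular progenitors at 0.0516, 0 and 0.0541 CPM (2 counts), and these 2 groups overlapped. Per kilobase of exon, which allows levels of different genes to be compared, the group means in DPP4+ progenitors were 31.9 CPM per kb for Cma1, 27.8 for Tpsb2, 18.3 for Cpa3 and 4.46 for Mcpt4. In ICAM1+ preadipocytes they were 20.2, 16.7, 11.6 and 2.92 in the same order. DPP4+ library 2 carried the DPP4+ means: in libraries 1 and 3 the levels were 14.7 and 13.2 CPM per kb for Cma1, 13.0 and 11.9 for Tpsb2, 9.04 and 5.73 for Cpa3 and 1.61 and 1.78 for Mcpt4, all below the ICAM1+ means.

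**Figure D1:**
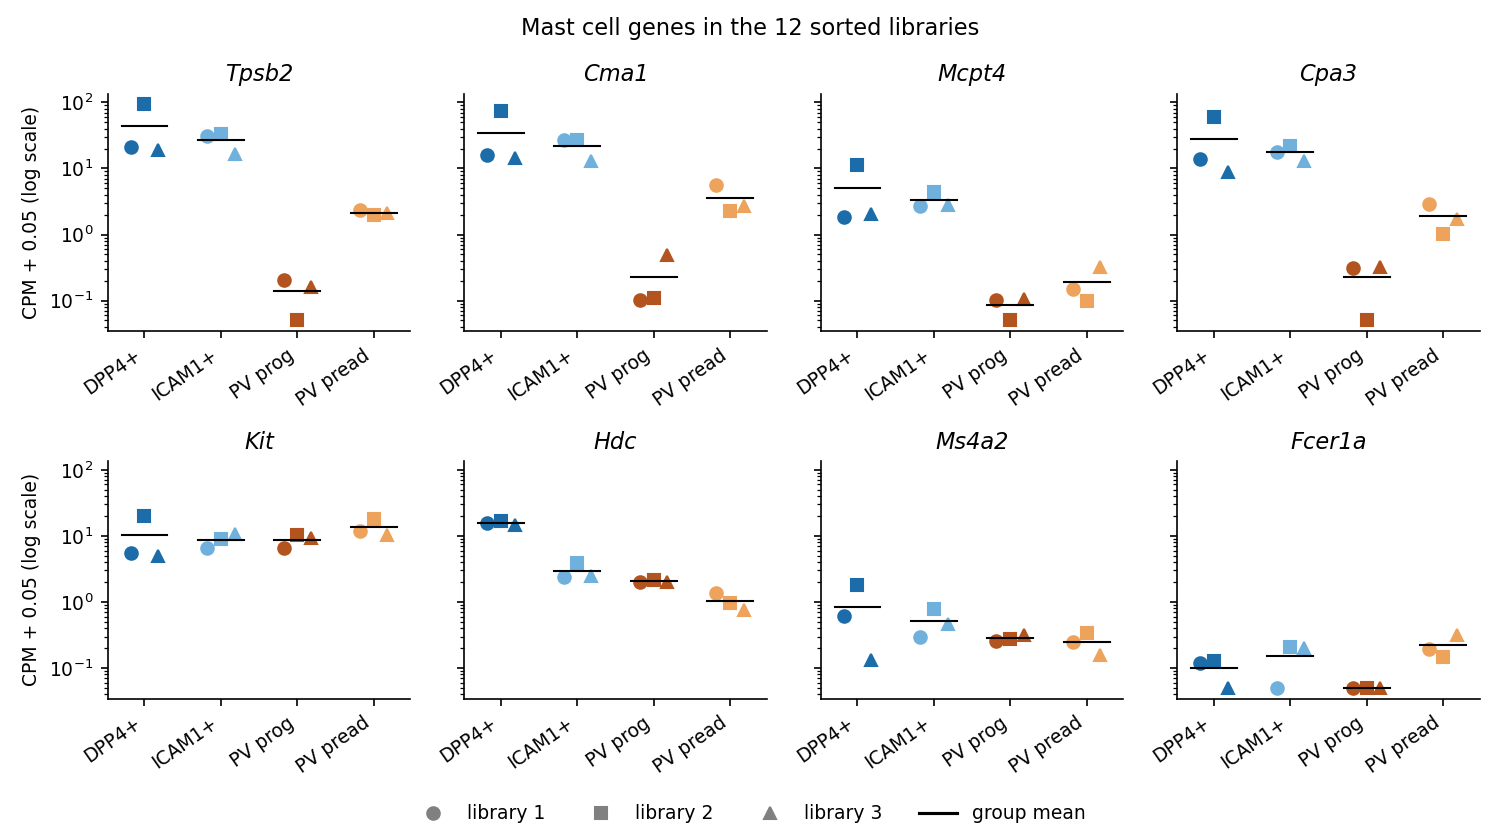
Level of each mast cell gene in the 12 libraries, as CPM + 0.05 on a log axis, by population (PV prog, perivascular progenitors; PV pread, perivascular preadipocytes), with library number by symbol and the group mean as a line. Tpsb2, Cma1, Mcpt4 and Cpa3 are low in both perivascular populations and highest in DPP4+ library 2. Kit, at 4.92 to 19.9 CPM, does not follow this order, and Hdc is high in all 3 DPP4+ libraries.

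The makeup of the protease RNA varied less among inguinal libraries than its amount. Protease counts (the sum over Tpsb2, Cma1, Cpa3 and Mcpt4) ran from 538 in DPP4+ library 3 to 3149 in DPP4+ library 2. Across the 6 inguinal libraries Tpsb2 took 36.5% to 43.1% of them, Cma1 28.4% to 34.3%, Cpa3 19.7% to 29.1% and Mcpt4 3.4% to 6.06%. Over the summed libraries, Tpsb2 took 39.6% in DPP4+ progenitors (95% Clopper-Pearson interval 38.2% to 41.1%, of 4419 counts) and 38.3% in ICAM1+ preadipocytes (36.8% to 39.7%, of 4357), and the intervals of the other 3 genes overlapped as well. For 3 of the 4 genes the intervals of the inguinal libraries with the lowest and highest shares did not overlap. Cma1 took 34.3% in ICAM1+ library 1 (31.7% to 37.0%) and 28.4% in ICAM1+ library 3 (25.4% to 31.5%), Mcpt4 took 3.4% (2.47% to 4.56%) and 6.06% (4.58% to 7.86%) in the same libraries, and Cpa3 took 19.7% in DPP4+ library 3 (16.4% to 23.3%) and 29.1% in ICAM1+ library 3 (26.1% to 32.2%).

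Perivascular preadipocytes had 219, 106 and 124 protease counts, and Cma1 took the largest share of them. Its share was 51.6%, 43.4% and 39.5% in the 3 libraries and 46.3% in their sum (41.6% to 51.1%, of 449), above the 31.4% in ICAM1+ preadipocytes (30.1% to 32.8%). Tpsb2 took 27.6% (23.5% to 32.0%) and Mcpt4 1.78% (0.772% to 3.48%), below their ICAM1+ shares of 38.3% and 4.77% (4.16% to 5.45%). Cpa3 took 24.3% (20.4% to 28.5%), within the ICAM1+ interval of 24.2% to 26.8%. Each perivascular preadipocyte library had a higher Cma1 share than any inguinal library, whereas the Tpsb2 share of library 2 (36.8%) lay inside the inguinal range. These intervals take each read as a separate molecule and leave out the spread between libraries. The reads came from amplified RNA and carry no molecular identifiers, so the intervals can be too narrow. No test over libraries was run on the shares. Perivascular progenitors had 10, 1 and 16 protease counts, too few for shares.

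**Figure D2:**
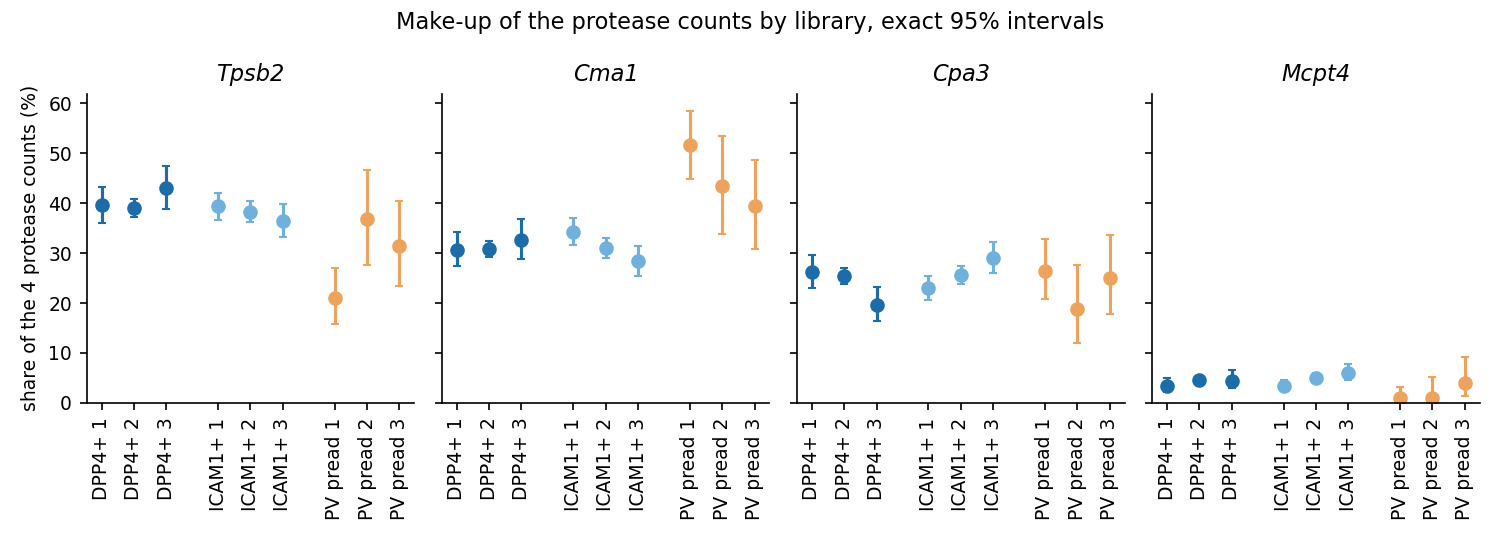
Share of each gene in the summed counts of the 4 granule proteases, in percent, for each library with at least 100 such counts, with exact 95% intervals for counting error. The inguinal libraries span 28.4% to 34.3% for Cma1 and 19.7% to 29.1% for Cpa3, and the 3 perivascular preadipocyte libraries, at 39.5% to 51.6%, lie above them for Cma1.

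The alpha and beta chains of the IgE receptor had few counts. Fcer1a, the chain that binds IgE, had 19 counts in all 12 libraries: 1, 1 and 0 in DPP4+ progenitors, 0, 4 and 3 in ICAM1+ preadipocytes, 3, 2 and 5 in perivascular preadipocytes and 0 in each perivascular progenitor library, where 3 counts would be 0.155 to 0.173 CPM. Ms4a2, the signal-amplifying beta chain, was at 0.571, 1.75 and 0.082 CPM in DPP4+ progenitors, 0.245, 0.736 and 0.411 CPM in ICAM1+ preadipocytes, 0.207, 0.230 and 0.271 CPM in perivascular progenitors and 0.197, 0.293 and 0.107 CPM in perivascular preadipocytes. All 4 groups of Ms4a2 overlapped, and its highest level, in DPP4+ library 2, rested on 23 counts. Per kilobase, Fcer1a was at 0.103 CPM and Ms4a2 at 0.165 CPM in ICAM1+ preadipocytes, against 20.2 for Cma1. Both genes failed the filter on low counts, which the other 6 of the 8 genes passed.

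Kit did not follow the proteases. This tyrosine kinase receptor, which melanocytes and blood progenitors also carry, was at 5.50, 19.9 and 4.92 CPM in DPP4+ progenitors, 6.50, 8.94 and 10.8 CPM in ICAM1+ preadipocytes, 6.56, 10.1 and 9.25 CPM in perivascular progenitors and 11.8, 18 and 10.3 CPM in perivascular preadipocytes. The DPP4+ values spanned those of all other populations. The highest mean was that of perivascular preadipocytes (13.4 ± 4.07 CPM, SD, n = 3), whose lowest library (10.3 CPM) lay just above the highest perivascular progenitor library (10.1 CPM). Set against the proteases of the same library, Kit had 10.5, 8.32 and 11.2 counts per 100 protease counts in DPP4+ progenitors and 8.39, 10.4 and 24.1 in ICAM1+ preadipocytes, but 110, 347 and 155 in perivascular preadipocytes. The ratio thus changed little between DPP4+ libraries while the proteases changed several-fold. Melanocyte markers (Dct, Tyrp1, Pmel, Mlana and Tyr) summed to 3.61 to 7.64 CPM in DPP4+ progenitors, 4.29 to 7.39 CPM in ICAM1+ preadipocytes, 6.22 to 7.02 CPM in perivascular progenitors and 4.29 to 5.65 in perivascular preadipocytes, and their part in the Kit level was not tested.

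Hdc separated the populations in another way. It was at 15.7, 16.9 and 14.4 CPM in DPP4+ progenitors (15.7 ± 1.25), 2.33, 3.79 and 2.42 CPM in ICAM1+ preadipocytes (2.85 ± 0.822), 1.96, 2.07 and 1.95 CPM in perivascular progenitors (1.99 ± 0.0683) and 1.33, 0.929 and 0.697 CPM in perivascular preadipocytes (0.985 ± 0.319). No population overlapped its neighbour in this order, although the lowest ICAM1+ library (2.33 CPM) and the highest perivascular progenitor library (2.07 CPM) lay close. Hdc did not rise with the proteases in DPP4+ library 2: there were 7.08 Hdc counts per 100 protease counts in that library and 30.1 and 32.7 in the other 2, against 3.01, 4.41 and 5.38 in ICAM1+ preadipocytes and 12.3, 17.9 and 10.5 in perivascular preadipocytes.

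**Figure D3:**
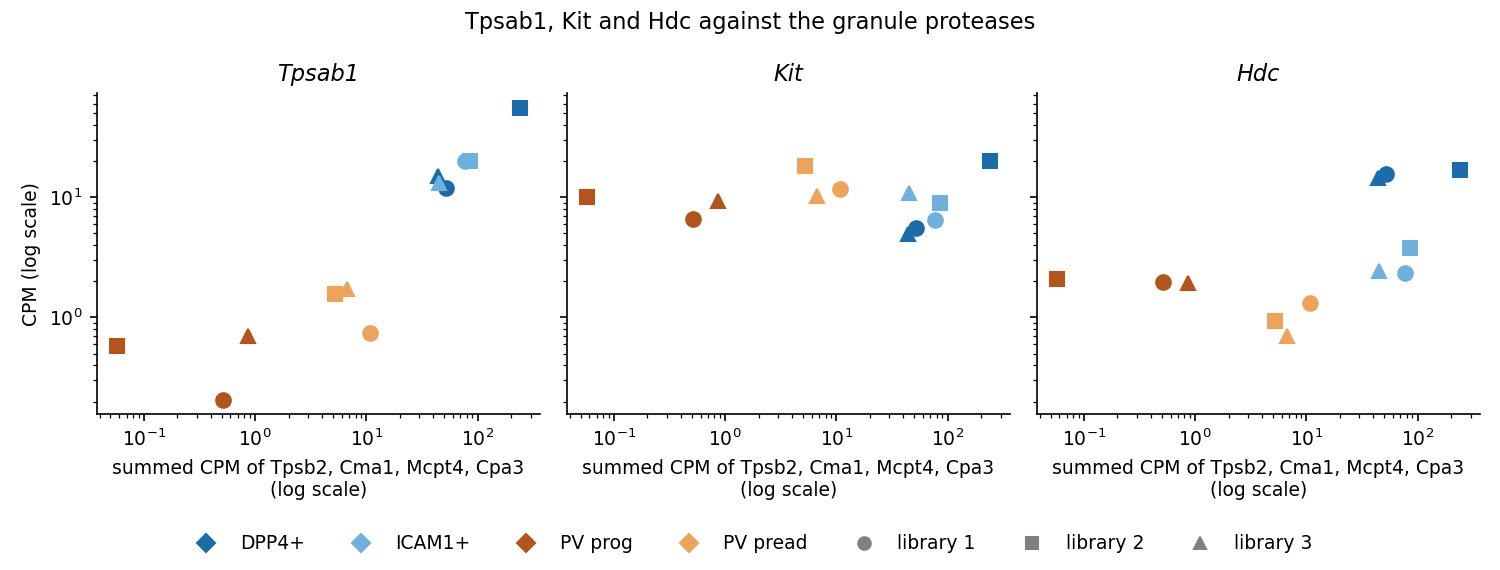
Level in CPM of Tpsab1, Kit and Hdc (vertical, log axis) against the summed CPM of Tpsb2, Cma1, Mcpt4 and Cpa3 (horizontal, log axis) in the 12 libraries, coloured by population. Tpsab1 rises with the proteases, Kit stays between 4.92 and 19.9 CPM, and Hdc is near 15.7 CPM in the DPP4+ libraries at every protease level.

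The test was run between the preadipocytes of both depots, since these 6 libraries were not part of the contrast on which the genes were chosen. They share pools of pups with the libraries of that contrast, and the fit takes its spread from all 12 libraries. The test is therefore not independent of the choice. All 4 proteases and Hdc fell in perivascular relative to ICAM1+ preadipocytes, and Kit did not pass the test. Tpsb2 was at 2.09 ± 0.177 CPM against 26.6 ± 8.92 CPM (mean ± SD, n = 3 each; log2 difference -3.67, SE 0.59, edgeR adjusted p = 0.000407). Cma1 was at 3.48 ± 1.81 against 22.0 ± 8.0 CPM (-2.66, SE 0.65, edgeR adjusted p = 0.00549). Every perivascular library was below every inguinal one for both genes. Mcpt4 was at 0.138 ± 0.115 against 3.23 ± 0.958 CPM (-4.52, SE 0.83, edgeR adjusted p = 0.000992), and Cpa3 at 1.83 ± 0.948 against 17.6 ± 4.47 CPM (-3.26, SE 0.69, edgeR adjusted p = 0.00239). Hdc fell less, from 2.85 to 0.985 CPM (-1.53, SE 0.28, edgeR adjusted p = 0.000883). For these 3 genes too the groups were apart in all 6 libraries. The share of all genes with groups apart was not counted, and the uncalled genes Srgn and Cd63 were apart as well. Nothing further is therefore read from the separation. Mcpt4 reached 10 counts in the 6 inguinal libraries and in no perivascular one, so it passed the filter only through the groups where it is high and had to differ, and its test adds no support.

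Of the 6 genes tested, 5 were lower, 0 were higher and 1 was not called, a count that includes Mcpt4, where 21.4% of all genes tested were called lower, 23.5% higher and 44.9% in either direction. With library totals in place of TMM factors, 66.5% of the calls over all genes were higher rather than 52.2%, and the median of all genes moved by 0.23 on the log2 scale. The median log2 difference of the 6 genes was -2.96, and that of all genes 0.04. Without adjustment of the p-values edgeR called 0 higher and 5 lower, and DESeq2 called the same numbers. Kit had a log2 difference of 0.61 (SE 0.45, edgeR adjusted p = 0.287, range over 21 settings 0.0367 to 0.615), and it was called higher without DPP4+ library 2, perivascular progenitor library 1 and perivascular preadipocyte library 1 (0.64, edgeR adjusted p = 0.0367). The other 5 calls held in all 21 settings, at adjusted p-values of at most 0.0292. Depth-scaled summed counts gave ratios of ICAM1+ to perivascular preadipocytes of 13.0 for Tpsb2 (95% counting interval 10.8 to 15.7), 6.35 for Cma1 (5.49 to 7.39), 25.1 for Mcpt4 (12.5 to 58.9), 9.84 for Cpa3 (8.08 to 12.1) and 2.99 for Hdc (2.22 to 4.08). The same ratio was 2.49 for Ms4a2 (1.24 to 5.33), 0.675 for Fcer1a (0.218 to 1.97) and 0.66 for Kit (0.591 to 0.737). These intervals take each read as a separate molecule and leave out the spread between libraries. Without a filter on low counts, over 31099 genes, Fcer1a differed by 0.58 (SE 1.10, edgeR adjusted p = 0.744). Ms4a2 differed by -1.28 (SE 0.79, edgeR adjusted p = 0.253), and neither gene was called at this depth.

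Other mast cell genes were counted from a list of 30, of which 27 were in the table and 18 were tested. In the preadipocyte comparison 6 of the 18 were lower and 0 higher, beside 21.4% lower and 23.5% higher over all genes (without adjustment 7 and 0, with DESeq2 7 and 0), and their median log2 difference was -0.91. Tpsab1, the other tryptase of the granule, was at 1.34 ± 0.527 against 17.7 ± 4.06 CPM (-3.73, edgeR adjusted p = 0.00034). Mitf, a transcription factor of mast cells and melanocytes, was at 2.01 ± 0.482 against 19.8 ± 2.38 CPM (-3.30, edgeR adjusted p = 3.99e-06). Csf2rb, the shared chain of the IL-3, IL-5 and GM-CSF receptors, differed by -2.83, Il1rl1, the IL-33 receptor, by -2.99, Mrgprb2, a receptor for basic secretagogues, by -2.75, and Fcer1g, the common gamma chain, by -1.93 (edgeR adjusted p = 0.000158, 0.00337, 0.00973 and 0.0339). The most abundant of the 12 genes that were not called were Cd63 (1170 ± 153 against 1400 ± 97.1 CPM), Ndst2 (24.1 ± 7.61 against 18.6 ± 0.563), Lyn (9.83 ± 2.56 against 9.66 ± 2.06) and Srgn (7.29 ± 0.859 against 5.81 ± 0.500), which many cell types express. Also not called were the transporter gene Slc18a2 (-0.515, edgeR adjusted p = 0.105) and the transcription factor gene Gata2 (-0.162, edgeR adjusted p = 0.719). Mrgprb1 was not called either (-1.466, edgeR adjusted p = 0.127). Mrgprb2, like Mcpt4, reached 10 counts only in inguinal libraries.

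**Figure D4:**
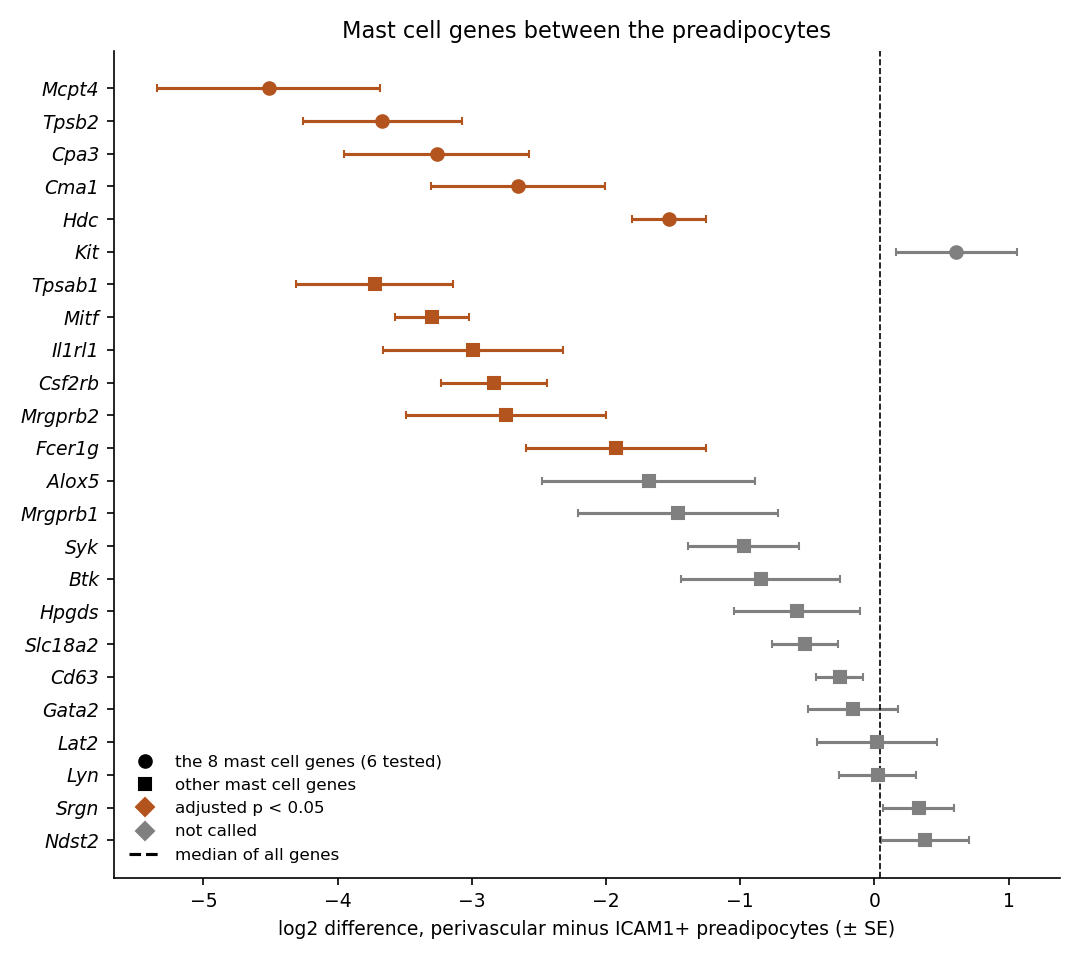
Log2 difference between perivascular and ICAM1+ preadipocytes, with its standard error, for the 6 tested mast cell genes and the 18 other mast cell genes tested, coloured by whether edgeR called them at an adjusted p under 0.05; the dashed line is the median of all genes (0.04). The proteases lie between -4.52 and -2.66 and Kit lies at 0.61.

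Between the progenitors, the contrast on which the genes were chosen, the log2 differences of perivascular minus DPP4+ progenitors were -8.83 for Tpsb2, -7.53 for Cma1, -7.21 for Cpa3, -6.85 for Mcpt4, -2.97 for Hdc and -0.23 for Kit. As depth-scaled summed counts, DPP4+ progenitors held 491 times as much Tpsb2 (95% counting interval 210 to 1520), 193 times as much Cma1 (105 to 403), 154 times as much Cpa3 (83.5 to 322), 137 times as much Mcpt4 (37.4 to 1140) and 7.89 times as much Hdc (6.44 to 9.76), and 1.18 times as much Kit (1.03 to 1.36). Without DPP4+ library 2 the differences were -7.68 for Tpsb2, -6.34 for Cma1, -5.91 for Cpa3 and -5.45 for Mcpt4, and that of Kit turned to 0.73. With library totals as the scale Kit was at 0.18, where the median of all genes moved by 0.43. For Ms4a2 the ratio was 3.45 (1.76 to 7.17), with 23 of its 32 DPP4+ counts in library 2. Fcer1a had 2 counts in DPP4+ and 0 in perivascular progenitors, which gives no ratio. Of the 18 other mast cell genes 9 were called lower and 0 higher in this contrast (9 and 0 without adjustment and with DESeq2), beside 11.8% lower, 13% higher and 24.9% in either direction over all genes, and nothing is read from that count because it comes from the same contrast. Without DPP4+ library 2, 5 were lower.

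The comparisons of preadipocytes with progenitors share libraries with the contrast of choice and are described only, and the difference between the depots was not tested. In the inguinal fat, ICAM1+ preadipocytes minus DPP4+ progenitors, the log2 differences were -0.74 for Tpsb2, -0.66 for Cma1, -0.66 for Cpa3, -0.61 for Mcpt4 and -0.20 for Kit, with overlapping groups. Without DPP4+ library 2 they were 0.42, 0.53, 0.65, 0.79 and 0.75 in the same order, so their sign rests on that library, and Kit also turned to 0.14 with library totals as the scale. Hdc differed by -2.45 with groups apart, and by -2.72 to -2.32 when any 1 library was left out. Of the 18 other genes, 2 (Il1rl1 and Syk) were called lower and 0 higher, beside 8.61% and 9.34% over all genes, 17.9% in either direction (3 and 0 without adjustment, 3 and 0 with DESeq2).

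In the perivascular fat Tpsb2, Cma1 and Cpa3 were at higher levels in every preadipocyte library than in any progenitor library, whereas the Mcpt4 values overlapped. Depth-scaled summed counts of preadipocytes were 23.0 times those of progenitors for Tpsb2 (95% counting interval 9.61 to 72.2), 19.3 times for Cma1 (10.3 to 40.9), 10.1 times for Cpa3 (5.3 to 21.7), 3.72 times for Mcpt4 (0.742 to 35.9), 1.57 times for Kit (1.4 to 1.77) and 0.498 times for Hdc (0.357 to 0.69). The fitted log2 differences were 4.43, 4.21, 3.30, 1.72, 0.63 and -1.01. The progenitor side of these ratios holds 2 to 10 counts per protease gene, and Tpsb2 ran from 3.88 to 5.01 and Cma1 from 3.66 to 5.83 when any 1 library was left out. Of the 18 other genes 3 (Csf2rb, Syk and Mitf) were called lower and 0 higher, beside 16.1% and 16.8% over all genes, 32.9% in either direction (3 and 0 without adjustment and with DESeq2).

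DPP4+ library 2 held several times the mast cell RNA of the other 2 DPP4+ libraries. Summed over the 4 proteases it was at 239 CPM against 52.3 and 44.1 CPM. Relative to the mean of the other 2, Mcpt4 was 5.91 times as high, Cpa3 5.43 times, Ms4a2 5.34 times (23 counts against 8 and 1), Cma1 4.84 times, Tpsb2 4.70 times and Kit 3.82 times, but Hdc 1.12 times. Among the other mast cell genes, Tpsab1 was at 12, 55.0 and 15.1 CPM in the 3 DPP4+ libraries and the vesicular monoamine transporter gene Slc18a2 at 5.57, 9.04 and 5.17 CPM. The transcription factor gene Gata2 was at 3.14, 7.90 and 4.18 CPM and Csf2rb at 4.43, 13.0 and 5.17 CPM, all highest in library 2. Mitf (24.5, 26.3 and 22.3 CPM) and Il1rl1 (14.0, 17.5 and 11.1 CPM) moved little with it.

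Markers of several other leukocytes were high in the same library. The basophil list was level, but its sum was mostly Il3ra (18.3, 19.0 and 21.8 CPM in the 3 DPP4+ libraries). The basophil gene Mcpt8 had 0, 2 and 0 counts, too few to tell. The 6 pan-leukocyte genes (Ptprc, Laptm5, Coro1a, Tyrobp, Cd53 and Cd52) summed to 17.4, 65.5 and 13.5 CPM in the DPP4+ libraries, and library 2 was at 4.23 times the mean of the others. The 8 eosinophil and neutrophil genes were at 4.74 times (28.1 against 4.64 and 7.22 CPM) and the 10 macrophage genes at 3.01 times (197 against 73.6 and 57.4 CPM). Most of the 28.1 CPM was S100a8 (13.2 CPM) and S100a9 (10.7 CPM). The eosinophil genes Siglecf, Prg2, Epx and Ccr3 had DPP4+ means of only 0.0273 to 0.298 CPM. The corresponding ratios were 0.979 for basophil, 2.14 for Schwann cell, 1.54 for lymphocyte, 1.51 for erythroid, 1.23 for endothelial, 1.17 for smooth muscle and pericyte, 0.906 for stromal and 0.891 for melanocyte markers. The part of these cells in the mast cell levels was not tested.

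In perivascular progenitor library 2 the pan-leukocyte and macrophage lists were high and the proteases were not. Its eosinophil and neutrophil sum was 0.72 times, its lymphocyte sum 1.05 times and its basophil sum 1.31 times the mean of the other 2 libraries. Its pan-leukocyte sum was 2.99 times (12.2 against 3.72 and 4.44 CPM) and its macrophage sum 2.38 times (81.6 against 33.1 and 35.4 CPM) the mean of the other 2 libraries, while it held 1 protease count against 10 and 16. Its pool was the pool of DPP4+ library 2, as the labels give it. ICAM1+ library 2 of the same pool had 1.41 times and perivascular preadipocyte library 2 had 0.595 times the protease sum of the other libraries of their groups.

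**Figure D5:**
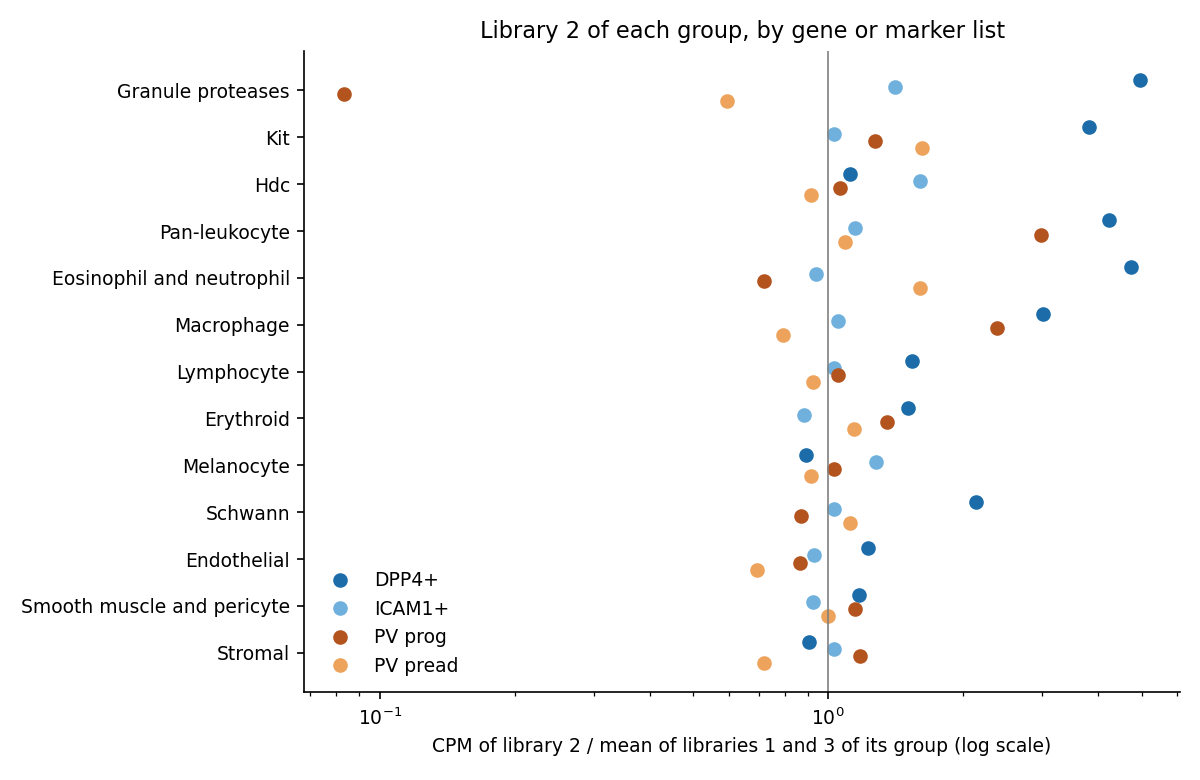
Ratio of the CPM in library 2 to the mean of libraries 1 and 3 of the same population, on a log axis, for the summed granule proteases, for Kit and Hdc, and for summed marker lists of other cell types. In DPP4+ progenitors the proteases (4.96) and the pan-leukocyte list (4.23) lie far right of 1 and Hdc (1.12) does not, whereas in perivascular progenitors the pan-leukocyte list lies at 2.99 and the proteases at 0.0833.

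Markers of several other cell types were also unequal between the preadipocytes of the 2 depots. The pan-leukocyte sum was 15 to 17.8 CPM in ICAM1+ and 4.67 to 6.76 CPM in perivascular preadipocytes, with 2 of 6 genes called lower, and the macrophage sum was 63.2 to 73.8 against 37.0 to 55.1 CPM, with 4 of 10 lower. Of the tested markers 5 of 5 for Schwann cells, 8 of 8 for stroma, 2 of 3 for erythroid cells and 3 of 8 for endothelium were lower. So were 1 of 2 each for lymphocytes and basophils, beside 21.4% of all genes. Smooth muscle and pericytes, with 2 of 10 lower, were near that share. Called higher were 1 of 4 for eosinophils and neutrophils and 1 of 10 for smooth muscle and pericytes, beside 23.5% of all genes. Of the melanocyte markers 0 of 2 were called. The median log2 difference was -2.82 for the Schwann cell, -1.98 for the erythroid, -1.70 for the stromal and -1.37 for both the pan-leukocyte and the macrophage lists. Their part in the protease difference was not tested. Basophils share the IgE receptor and Hdc with mast cells, and genes typical of them had few counts. Mcpt8 had 0 to 4 counts in any library and 0 in all perivascular preadipocytes. In the DPP4+ libraries Prss34 had 10, 11 and 1 counts and Cd200r3 had 9, 9 and 4. Such counts are too few to tell how many basophils were present, and their part in the Hdc level was not tested. The basophil list sum of 20.5 to 23.4 CPM in DPP4+ progenitors and 3.86 to 4.99 CPM in perivascular preadipocytes came mostly from Il3ra (19.7 ± 1.87 and 3.59 ± 0.652 CPM).

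Stromal ligands of mast cells differed between the populations. Kitl, which encodes stem cell factor, was at 82.0 ± 14.5 CPM in DPP4+ progenitors, 203 ± 9.32 CPM in ICAM1+ preadipocytes, 54.3 ± 15.6 CPM in perivascular progenitors and 6.09 ± 1.77 in perivascular preadipocytes. It fell in perivascular relative to ICAM1+ preadipocytes (log2 difference -5.05, SE 0.28, edgeR adjusted p = 1.6e-07), with 8.11, 4.79 and 5.36 CPM against 193, 203 and 212 CPM. It rose from DPP4+ progenitors to ICAM1+ preadipocytes (1.30, edgeR adjusted p = 0.00191) and fell from perivascular progenitors to preadipocytes (-3.16, edgeR adjusted p = 1.44e-05), and between the progenitors it did not pass (-0.59, edgeR adjusted p = 0.0855). Kitl was lowest in perivascular preadipocytes, where the receptor gene Kit was not lower than elsewhere, and the proteases were lowest in perivascular progenitors. A link between the ligand and these levels was not tested.

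Il33, the alarmin that acts on mast cells through the product of Il1rl1, had another order. It was at 14.7 ± 0.872 CPM in DPP4+ progenitors, 65.9 ± 5.73 CPM in ICAM1+ preadipocytes, 116 ± 54.4 CPM in perivascular preadipocytes and 429 ± 59.0 in perivascular progenitors, with perivascular above ICAM1+ preadipocytes (0.82, edgeR adjusted p = 0.0194). Perivascular preadipocyte library 1 was at 178 CPM, the other 2 at 93.9 and 76.6 CPM, and ICAM1+ preadipocytes at 59.3 to 69.5 CPM. Il1rl1 was highest where Il33 was lowest, at 14.2 ± 3.20, 3.35 ± 1.24, 0.415 ± 0.505 and 0.512 ± 0.239 CPM. Tslp, an epithelial and stromal cytokine, was at 2.72 ± 1.29, 2.93 ± 0.952, 1.09 ± 0.273 and 1.20 ± 0.440 CPM, and was lower in perivascular than in ICAM1+ preadipocytes (-1.42, edgeR adjusted p = 0.0189).

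The genes whose level was most like the summed mast cell genes were listed by Pearson's r of log2 CPM over the 12 libraries, as a description, among 15240 genes. They were Rac2 (0.97), Tpsab1 (0.97), Cyp11a1 (0.969), Tmem182 (0.964), Pla2g7 (0.96), Mrgprb2 (0.952), Mrgprb1 (0.947), Ms4a6d (0.938), Ppm1l (0.937) and Nrros (0.936). Cyp11a1, which encodes the enzyme that cleaves the cholesterol side chain, had means of 4.01 CPM in DPP4+ progenitors, 2.04 CPM in ICAM1+ preadipocytes, 0.363 CPM in perivascular preadipocytes and 0.112 in perivascular progenitors. Over the 6 inguinal libraries, which leave the depots out, the highest were Ctss (0.989), Zdhhc21 (0.988), Clec4n (0.98), Cyp11a1 (0.978), Bcl6b (0.978), Fcgr3 (0.976), Gimap4 (0.971), Pbld1 (0.97), Adgre4 (0.969) and Tpsab1 (0.969). Tpsab1 and Cyp11a1 were in both lists. The points share libraries and depth, and over the inguinal libraries 1 library, DPP4+ library 2, is far from the rest. In the perivascular groups most of the sum was Kit, which did not follow the proteases.

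Each of the 8 genes was also set against the sum of the other 7, again as a description. Over the 12 libraries r was 0.942 for Tpsb2, 0.925 for Cma1, 0.953 for Mcpt4 and 0.94 for Cpa3, then 0.683 for Ms4a2, 0.643 for Hdc, 0.187 for Fcer1a and -0.028 for Kit. Over the 6 inguinal libraries the proteases were at 0.928 to 0.981, Ms4a2 at 0.802, Kit at 0.73, Hdc at 0.223 and Fcer1a at 0.094. The inguinal values rest on DPP4+ library 2, which held the most Kit (19.9 CPM) and the most protease (239 CPM). Among the ICAM1+ libraries Kit was highest (10.8 CPM) where the protease sum was lowest (44.9 CPM).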

How the data were processed

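RNA was measured in 12 libraries of sorted cells. Per the labels' protocols, poly(A) RNA was amplified by SMART-Seq for low input. The submitters' processing notes name STAR 2.5.2a, mm10 and DESeq2 1.26.0, and how reads were counted and whether strand was used is not given in the sources used here. Whole-number counts fill the deposited raw table, 1 per gene and library. The authors' normalized table (unit signal) holds those counts divided by 1 factor per library and was used only for an alternative sum, and the deposited log2 table was not used.

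Counts were fitted with edgeR 4.0.16, limma 3.58.1 and R 4.3.3: filterByExpr with a minimum count of 10 kept 18855 of 31099 genes, libraries were scaled by TMM, and the 12 libraries entered 1 quasi-likelihood fit (two-sided, Benjamini-Hochberg over all genes tested, calls under 0.05). The standard error is the size of the log2 difference over the square root of F. The 31074 identifiers found in GENCODE vM21 gave coordinates. Intervals of shares are Clopper-Pearson and those of ratios are exact for the summed counts. The fit was also run on simulated counts in which no library stood out. Its outcome is not given here, and it is no check on genes for which 1 library stands out.

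The members, gene lists and rules were chosen with earlier results of these data known. The text names the 8 genes, up to 6 called and 4 uncalled other mast cell genes by abundance, ligands, and the 10 genes most like the sum. Fcer1g and Syk were named after their values were seen, and Il3 was not analysed here. Alternatives were library totals, median-of-ratios factors, other filters, DESeq2 1.42.0, the pool as a replicate block, 2 groups alone and each library left out. The labels say that the number marks a shared pool of mice. Deviations of same-numbered libraries correlated at -0.02 on average (18 pairs, -0.213 to 0.153) and of others at 0.01 (36 pairs).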

Additional observations from a re-analysis of the deposited data

How the results depend on the processing

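Among the preadipocytes the 5 lower calls of the 8 genes held in each alternative, and leaving out any 1 library gave 5 lower and 0 higher. Without the 3 libraries that stood apart, an alternative chosen after seeing the data, 1 gene (Kit, 0.64) was higher. Other mast cell genes lower there were 5 to 7 when 1 library was left out. With the pool number as a replicate block the 8 genes gave 5 lower and the other mast cell genes 7 lower in the preadipocytes, 8 lower between the progenitors, and 2 lower in each stage comparison, and no call of the 8 genes changed. The cause of the following moves was not tested. Between the progenitors, 9 other mast cell genes were lower, 5 with library totals, 4 with 2 groups alone (14 tested in place of 18), 5 without the 3 libraries and 5 to 9 when 1 library was left out. Between the inguinal stages 2 were lower, 1 with library totals, 4 with 2 groups alone and 0 to 2 when 1 was left out, and 0 were higher, 1 with library totals, 1 with 2 groups alone, 2 without the 3 libraries and 0 to 1 when 1 was left out. Between the perivascular stages 3 were lower, 1 to 3 when 1 was left out, and 0 were higher, 1 without the 3 libraries and 0 to 1 when 1 was left out. Calls over all genes were 4687 between the progenitors (7548 with library totals), 3384 between the inguinal stages (5276 with library totals, 5757 with 2 groups alone) and 6198 between the perivascular stages (2825 with 2 groups alone, 9893 without the 3 libraries, 3916 to 8000 when 1 was left out). Signs turned for Kit between the progenitors (0.18 with library totals, 0.73 without DPP4+ library 2, 0.88 without the 3 libraries; -0.55 to 0.73 when 1 was left out). Between the inguinal stages they turned without DPP4+ library 2 for Tpsb2 (0.42), Cma1 (0.53), Mcpt4 (0.79), Cpa3 (0.65) and Kit (0.75), without the 3 libraries for Tpsb2 (0.40), Cma1 (0.50), Mcpt4 (0.77), Cpa3 (0.63) and Kit (0.73), and with library totals for Kit (0.14). When 1 library was left out, the ranges were -1.09 to 0.42 for Tpsb2, -1.02 to 0.53 for Cma1, -1.0 to 0.79 for Mcpt4, -1.07 to 0.65 for Cpa3 and -0.52 to 0.75 for Kit. The summed level of the 8 genes differed by -1.85 on the log2 scale between the preadipocytes (-1.88 to -1.63 over the alternatives) and by -3.28 between the progenitors (-3.66 to -2.85). In the perivascular groups most of this sum was Kit, with 13.4 of 22.3 CPM in preadipocytes and 8.63 of 11.3 CPM in progenitors (means). The proteases there summed to 7.53 and 0.48 CPM.

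Depth limits Fcer1a and Ms4a2 everywhere, and the proteases in perivascular progenitors, where 27 protease counts were seen in all. With 3 libraries in each group, p-values measure the spread between libraries of a group, in which pool, sort and amplification cannot be told apart.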
